A study of Mus musculus with 2 samples.

Results

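A set of 10 genes of heme breakdown, iron handling and metal binding were described across mouse heart libraries. They are Hmox1, Hmox2, Blvra, Blvrb, Fth1, Ftl1, Slc40a1, Tfrc, Mt1 and Mt2, out of 24346 gene symbols listed. They were taken by name, and the group was selected on the FPKM of Hmox1 and Mt2, which are among the genes lowest in the treated library relative to the untreated one. All values below come from that same contrast, so they are a description and carry no test. RNA sequencing was done on heart tissue kept in an RNA preservative and frozen, from mice given a high-fat diet (HFD) that had undergone MI, myocardial infarction. The tested sample had been treated with probucol, a cholesterol-lowering antioxidant drug, and the other was untreated. HFD, MI and the age label day 14 are common to both. Strain, genotype, sex, the part of the heart taken and whether animals were pooled are not given by the labels. The deposited names carry a mark that may stand for a genotype, which was left uninterpreted. Each group has 1 library, so no difference has a replicate check and every statement describes these libraries, not the treatments.

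Heme oxygenase opens the porphyrin ring of heme and releases iron, carbon monoxide and biliverdin, which biliverdin reductase turns into bilirubin. The freed iron is stored in ferritin or leaves the cell through ferroportin, while iron arrives bound to transferrin and enters through the transferrin receptor. Metallothioneins are small cysteine-rich proteins that bind zinc, copper and cadmium. Macrophages that clear dying cells and red cells run much of this traffic in injured tissue, and heart muscle uses heme and iron in its mitochondria.

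Control of these genes is written partly in short sequences, shown here because they divide the iron genes into a group with a 5′ element and a gene with 3′ elements. In the iron-responsive element a stem carries the loop CAGTGN, and iron regulatory proteins bind it when iron is scarce. Binding in the 5′ untranslated region blocks translation, and binding in the 3′ untranslated region protects the transcript from decay. The pattern searched, on the transcript strand, was a C, any 5 bases, a loop of CAGTG and a base other than G, and then 5 bases able to pair with the 5 before the loop, G-T pairs allowed. It was found in 4 of the 10 genes, counting only the GENCODE transcript numbered 201 of each. Counting any protein-coding transcript, a wider search, it was found in 1.01% of 21877 protein-coding genes of the GENCODE annotation. Capitals mark the loop letters CAGTG, and positions are on GRCm38, the Genome Reference Consortium name of mm10.
Fth1 5′ element, chr19:9982732-9982760, plus strand: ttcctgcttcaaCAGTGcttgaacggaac
Ftl1 5′ element, chr7:45459779-45459807, minus strand: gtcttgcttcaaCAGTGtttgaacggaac
Slc40a1 5′ element, chr1:45925465-45925493, minus strand: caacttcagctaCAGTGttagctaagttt
Tfrc 3′ element 1, chr16:32631219-32631247, plus strand: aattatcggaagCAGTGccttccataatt
Tfrc 3′ element 2, chr16:32631598-32631626, plus strand: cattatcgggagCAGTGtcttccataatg
Tfrc 3′ element 3, chr16:32631663-32631691, plus strand: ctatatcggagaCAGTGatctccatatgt
Tfrc 3′ element 4, chr16:32631710-32631738, plus strand: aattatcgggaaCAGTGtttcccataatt
The ferritin elements of Fth1 and Ftl1 are identical at 26 of 29 bases, and that of Slc40a1 matches each of them at 13. A match is a description of letters, not proof of a working element.

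Metallothionein promoters are known for the metal response element, the site of the zinc-sensing factor MTF1. The Mt2 promoter is shown because Mt2 and its neighbour Mt1, 5315 bases apart on chromosome 8 in RefSeq's annotation, differed unequally between the libraries. The sequence is the 250 bases before the Mt2 start given by RefSeq on GRCm38, plus strand, and capitals mark the core TGCGCNC or TGCACNC on either strand.
Mt2, chr8:94172368-94172617: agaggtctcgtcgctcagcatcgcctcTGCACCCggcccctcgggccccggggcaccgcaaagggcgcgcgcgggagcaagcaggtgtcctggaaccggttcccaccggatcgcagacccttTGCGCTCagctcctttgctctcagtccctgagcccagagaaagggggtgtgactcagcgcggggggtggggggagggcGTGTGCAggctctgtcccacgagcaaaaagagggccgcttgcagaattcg
This stretch holds 3 such matches. In the full windows of 300 bases, which run 50 bases past a start, Mt2 holds 4, Mt1 holds 3 and 1 of the Tfrc windows holds 2, and 25.7% of 32851 promoter windows hold at least 1. The Mt1 window belongs to a start at 94179089, which lies 206 bases inside the outer bounds of its RefSeq gene. GENCODE starts the genes elsewhere, at 94179082 for Mt1 and at 94172664 for Mt2. The windows of Mt2 and Mt1 are thus not placed alike, and their counts are not compared. The core TGACNNNGC of the antioxidant response element, the site of the oxidant-sensing factor NRF2, was found once in the windows of Mt2 and of Blvra on either strand, and in 12.4% of all windows. The windows searched were those of Blvra, Blvrb, Ftl1, Mt2, Mt1, Hmox2, Tfrc and Fth1.

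Expression is given in FPKM, in which fragments are divided by transcript length and by the mapped total, a unit that allows levels to be compared between genes. Differences are log2 ratios of FPKM + 0.5, probucol over untreated, and they understate the difference of low genes. Measured genes are the 12882 with a mean FPKM of at least 0.5, and all 10 members are among them. By the steps of the lowest values, each FPKM of a transcript with 1 kb of effective length was worth about 6.69 fragments with probucol and 7.46 without. Fragment numbers could therefore be estimated for the 6 members with 1 RefSeq transcript, and the exact 95% binomial intervals of their ratios cover counting error only. All 9 markers of heart muscle cells were abundant, with a sum of 70746 FPKM with probucol and 51218 FPKM without, as the tissue label says. Macrophage markers were lower with probucol and red cell markers higher, with values given below beside the genes they touch.

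Of the 10 genes, 4 lay 2-fold or more lower with probucol and 0 lay 2-fold or more higher. Over all measured genes, the shares were 5.14% lower and 1.07% higher by that limit. At 1.5-fold, 5 members were lower and 0 higher, against 12.0% and 5.52% of all measured genes. The median log2 ratio of the 10 was -0.58, and that of all measured genes was 0.01. Since the low values of Hmox1 and Mt2 chose the group, nothing is read from these shares. The members fall into a lower set, Hmox1, Mt2, Slc40a1, Ftl1 and to a lesser extent Blvra, and a set within 1.5-fold, Mt1, Blvrb, Tfrc, Fth1 and Hmox2.

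**Figure D1:**
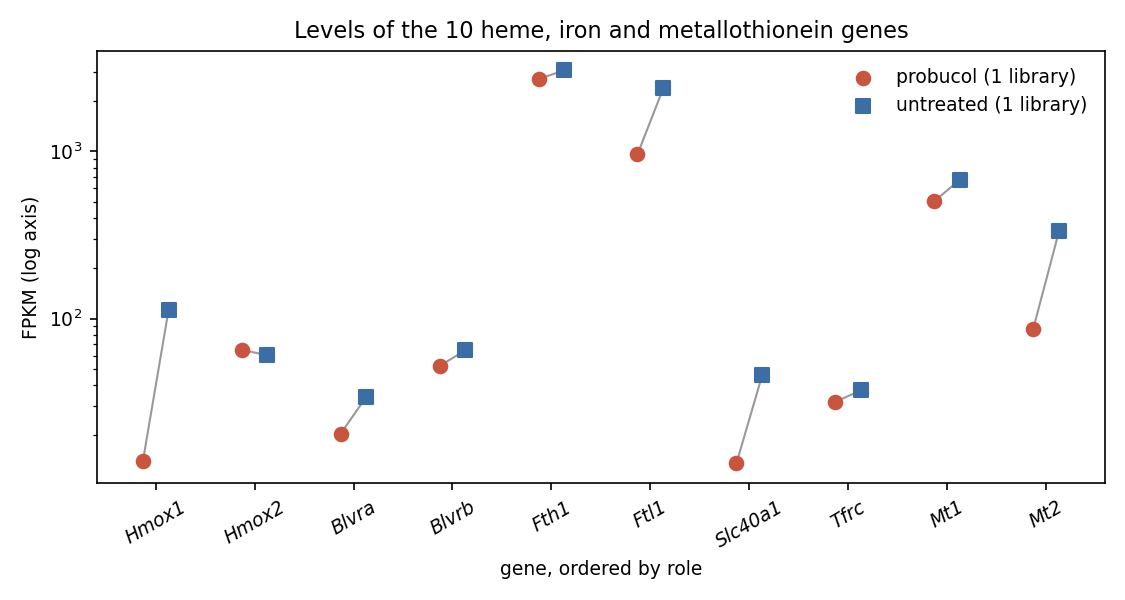
FPKM of each gene on a log axis, with circles for the probucol library and squares for the untreated library, 1 library each, joined by a line per gene. Hmox1 has the steepest line, with 14.0 FPKM with probucol against 112 without, and Hmox2 lies level at 64.9 against 60.4.

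The heme oxygenases are described by isoform. Hmox1 encodes the heme oxygenase that stress and heme induce (chromosome 8, 75093618 to 75100593), with 14.0 FPKM in the probucol library against 112 FPKM in the untreated one. Its log2 ratio of -2.96 corresponds to 7.78-fold lower, and placed it at number 23 of all measured genes from the lowest ratio. An estimated 126 fragments with probucol and 1129 without give an FPKM ratio between 0.103 and 0.150 by counting error. Hmox2, the constitutive heme oxygenase (chromosome 16, 4726361 to 4766742), had 64.9 FPKM with probucol and 60.4 FPKM without. Its log2 ratio of 0.10 lies within the bulk of measured genes, and it changes sign, to -0.36, when the libraries are scaled to heart muscle markers. The low value of Hmox1 helped choose the group, so nothing is read from its gap to Hmox2.

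Within a library, the ratio of one gene to another does not depend on how the libraries were scaled to each other. Hmox1 made up 17.7% of the summed FPKM of both heme oxygenases with probucol and 65.0% without. The more abundant isoform was Hmox2 with probucol and Hmox1 without, which is no result because Hmox1 was chosen for its low value. The summed level of both was 78.9 FPKM with probucol against 173 FPKM without, a log2 ratio of -1.12.

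The biliverdin reductases, which act on the product of heme oxygenase, differed by less than Hmox1, which was chosen for its low value. Blvra, biliverdin reductase A (chromosome 2, 127070629 to 127097084), had 20.5 FPKM with probucol and 34.1 FPKM without, a log2 ratio of -0.72. It rests on an estimated 129 and 239 fragments, with an FPKM ratio between 0.482 and 0.749, so the counting interval spans the 1.5-fold and the 2-fold limits. Blvrb, biliverdin reductase B (chromosome 7, 27447978 to 27465981), which also reduces flavins, had 52.1 FPKM with probucol and 64.6 FPKM without, a log2 ratio of -0.31. Blvra made up 28.2% of the summed FPKM of the reductases with probucol and 34.5% without. Relative to the reductases, Hmox1 had 0.682 times the FPKM of Blvra with probucol and 3.29 times without. Against Blvrb the figures were 0.268 and 1.74. Hmox1 alone was thus less abundant than either reductase with probucol and more abundant without. The summed oxygenases were above the summed reductases in both libraries, at 78.9 and 72.6 FPKM with probucol and at 173 and 98.7 FPKM without.

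Ferritin, the iron store, held the most abundant members. Fth1, the heavy chain with the ferroxidase centre (chromosome 19, 9980600 to 9985111), had 2712 FPKM with probucol and 3051 FPKM without, a log2 ratio of -0.17. Ftl1, the light chain that favours formation of the iron core (chromosome 7, 45457944 to 45459886), had 959 FPKM with probucol against 2378 FPKM without. Its log2 ratio was -1.31, or 2.48-fold lower, from an estimated 4801 and 13274 fragments and with an FPKM ratio between 0.390 and 0.417. Both chains carry the 5′ element printed above, alike at nearly all bases. That element is described above as acting on translation, which RNA levels do not show. At the RNA level the differences of the chains were unequal. Light chain made up 26.1% of the summed ferritin FPKM with probucol and 43.8% without. Fth1 was thus 2.83 times as abundant as Ftl1 with probucol and 1.28 times without.

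The ferritin values carry an uncertainty of mapping. Stretches of 75 bases of Ftl1 transcripts also occur in transcripts of 6 other annotated genes, among them the copies Ftl1-ps1 and Ftl2-ps, and those of Fth1 occur in 1. None of these copies has a row of its own in the files, so how fragments of shared sequence were assigned cannot be seen. The other 8 members share no stretch of this length with another annotated gene. Together the ferritin chains held 3671 FPKM, 0.491% of all FPKM, with probucol, and 5428 FPKM, 0.804%, without.

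Iron export and uptake also differed unequally. Slc40a1 encodes ferroportin, the exporter of iron (chromosome 1, 45908070 to 45926532), and had 13.6 FPKM with probucol against 45.8 FPKM without. Its log2 ratio was -1.71, or 3.28-fold lower, from an estimated 287 and 1076 fragments and with an FPKM ratio between 0.260 and 0.339. Tfrc encodes the transferrin receptor (chromosome 16, 32608896 to 32632794) and had 31.8 FPKM with probucol and 37.2 FPKM without, a log2 ratio of -0.22. Ferroportin transcript was 0.428 times as abundant as transferrin receptor transcript with probucol and 1.23 times without. By role of the printed elements, the genes with a 5′ element had log2 ratios of -0.17, -1.31 and -1.71, and the gene with 3′ elements had -0.22. Whether the elements have a part in these values was not tested.

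Among the metallothioneins, Mt2 was the lower. Mt2 (chromosome 8, 94172618 to 94173567) had 86.7 FPKM with probucol against 332 FPKM without. Its log2 ratio was -1.93, or 3.81-fold lower, from an estimated 169 and 721 fragments and with an FPKM ratio between 0.220 and 0.310. Mt1 (chromosome 8, 94178883 to 94180327) had 503 FPKM with probucol and 679 FPKM without. Its log2 ratio was -0.43, from an estimated 1107 and 1666 fragments, with an FPKM ratio between 0.686 and 0.800. The counting intervals of these neighbours do not overlap, but these intervals leave out differences between animals. Mt2 also helped choose the group, so nothing is read from the gap. No stretch of 75 bases is shared by the transcripts of Mt1 and Mt2. Mt2 made up 14.7% of the summed FPKM of the pair with probucol and 32.8% without, and Mt1 was the more abundant in both libraries. These transcripts are short, 511 bases for Mt2 and 549 for Mt1, which makes their FPKM more sensitive to the fragment length assumed than those of the longer members.

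**Figure D2:**
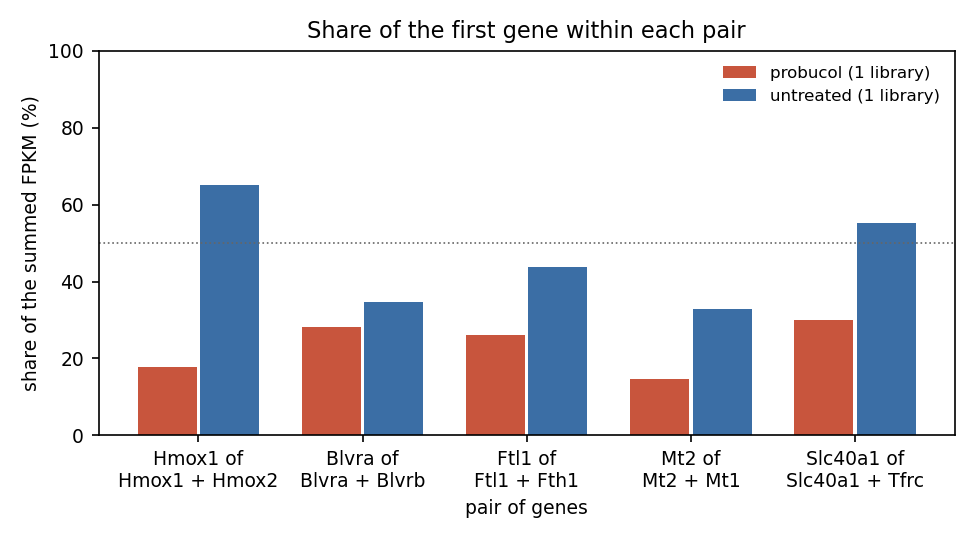
Share of the first gene in the summed FPKM of each pair, as bars from 0, with the probucol library left of the untreated library and a dotted line at 50%. In each of the 5 pairs the gene with the lower log2 ratio is named first, so its smaller share with probucol follows from that order. Hmox1 and Slc40a1 lie on opposite sides of the line in the libraries.

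The order of levels among the members differed between the libraries. In the probucol library it ran Fth1, Ftl1, Mt1, Mt2, Hmox2, Blvrb, Tfrc, Blvra, Hmox1 and Slc40a1. In the untreated library it ran Fth1, Ftl1, Mt1, Mt2, Hmox1, Blvrb, Hmox2, Slc40a1, Tfrc and Blvra. The first 4 places were the same, and Hmox1 stood at place 9 with probucol and at place 5 without. Among all measured genes Hmox1 was at rank 4545 with probucol and 758 without, counted from the most abundant. Neighbours such as Hmox1 and Slc40a1 with probucol, at 14.0 and 13.6 FPKM, or Blvrb and Hmox2 without, at 64.6 and 60.4 FPKM, have no replicate spread by which their order could be judged.

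**Figure D3:**
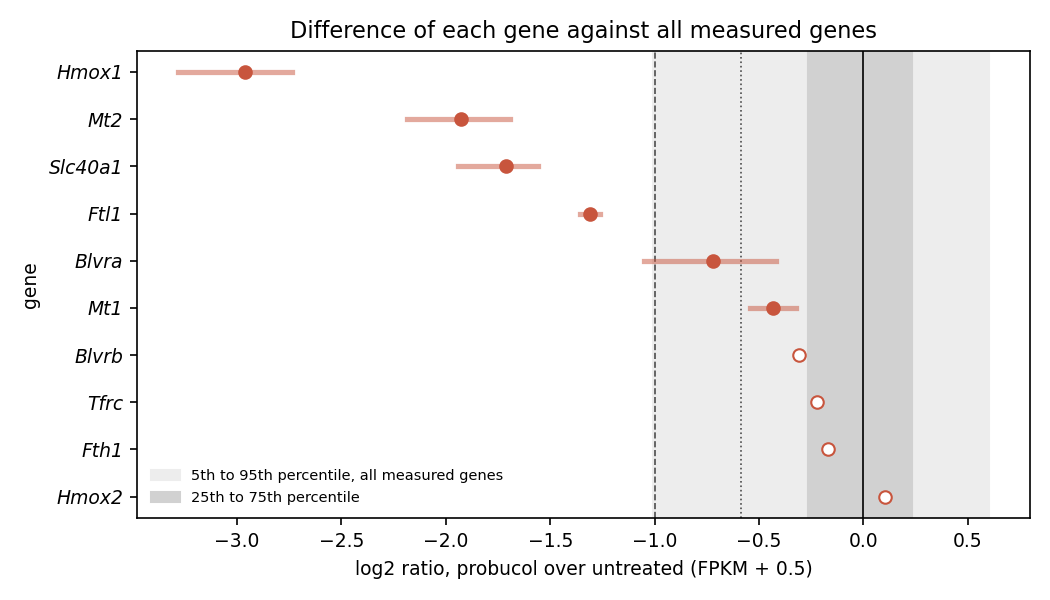
Log2 ratio of each gene, probucol over untreated, from FPKM + 0.5, against the range of all measured genes (light grey, the 5th to 95th percentile, -1.01 to 0.60; dark grey, the 25th to 75th percentile, -0.26 to 0.23). Filled points have an exact 95% counting interval and open points have none, the dashed line marks 2-fold lower and the dotted line 1.5-fold lower, and Hmox1, Mt2, Slc40a1 and Ftl1 lie below the light band.

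Macrophage transcripts differed in the same direction as the lower set. Each of 12 macrophage markers was lower by 1.5-fold or more, with log2 ratios between -2.35 and -0.72 and a median of -1.56. Their sum was 1103 FPKM with probucol against 3639 FPKM without. Of all measured genes, 12.0% were lower by that limit, a share that also stands beside the marker counts below. No defining marker was at 0, and Cd68, a lysosomal protein of macrophages, had 27.0 FPKM with probucol against 140 FPKM without. The log2 ratio of Hmox1 was below that of all 12 markers, and that of Mt2 was below 10 of them. Hmox1 and Mt2 helped choose the group by their low values, so nothing is read from these places. Slc40a1 lay below 8 and Ftl1 below 4, so both fall among the markers. Hmox2, Blvrb, Fth1, Tfrc and Mt1 lay above all 12. The part of macrophages in these values was not tested, and fewer cells of a type cannot be told apart from less RNA per cell in bulk tissue. Markers of macrophages that recycle red cell iron were lower too, 7 of 7 measured past 1.5-fold with a median of -1.69. Of these, Spic, Cd5l and Marco are measured only through the untreated library, with 0.283, 0.408 and 0.420 FPKM with probucol against 2.03, 5.56 and 5.95 FPKM without, so that they had to differ and the count is no support. Their probucol values rest on an estimated 3, 5 and 5 fragments. The list sums to 15.6 FPKM with probucol and 48.7 FPKM without, with Clec4f, of liver macrophages, at 0 in both libraries. Fibroblast markers were lower by less, 4 of 6 past 1.5-fold with a median of -0.85.

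Genes whose level resembled that of a member in both libraries were taken as the nearest 3 coding genes by the Euclidean distance of the log2 values, over only these libraries. For Hmox1 they were the glycoprotein gene Gpnmb (13.1 FPKM with probucol, 68.1 without), the macrophage marker Ms4a7 (18.9 and 68.5) and Spp1, which encodes osteopontin (14.2 and 201), at distances of 0.72 to 0.84. For Mt2 they were Col3a1, a collagen chain, Tyrobp, a signalling adaptor of myeloid cells, and Lgmn, a lysosomal protease, at 0.37 to 0.44. For Slc40a1 they were Lst1, the acute phase gene Saa3 and Ccl2, a chemokine that attracts monocytes, at 0.21 to 0.27. With so few libraries, likeness here means similar level and similar difference, no more.

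Upstream of heme breakdown, the enzymes that make heme were higher with probucol on the deposited scale. All 9 lay above 0, with a median log2 ratio of 0.44, and 2 were at least 1.5-fold higher. Of all measured genes, 49.1% lay below 0 and 5.52% were at least 1.5-fold higher. Alas2, the first enzyme in red cell precursors, had 98.5 FPKM with probucol against 38.0 FPKM without, a log2 ratio of 1.36. Its counterpart in other tissues, Alas1, had 87.9 FPKM with probucol and 64.8 FPKM without. Fech, which inserts iron into the ring, had 77.6 FPKM with probucol and 54.4 FPKM without, and Cpox, an oxidase of the middle of the pathway, had a log2 ratio of 0.61. With the libraries scaled to heart muscle markers the median of this list is -0.03, where that of all measured genes is -0.42. Under the other scalings tried the median of the list was 0.35 to 0.43, so its sign depends on the scaling to heart muscle markers. Red cell markers were higher as well, 5 of 6 measured past 1.5-fold with a median of 0.81, against 5.52% of all measured genes. Their summed FPKM was 9577 with probucol against 5656 without. The part of red cells in the Alas2 value was not tested.

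Transport and binding of heme gave mixed values. By the 1.5-fold limit 3 of 10 measured genes were lower and 0 higher, against 12.0% and 5.52% of all measured genes. The median was -0.31. The lower genes were Hp, haptoglobin that binds free hemoglobin, with 18.8 FPKM with probucol against 55.2 FPKM without, Cd163, the macrophage receptor that takes up hemoglobin with haptoglobin, with 6.18 against 14.8 FPKM, and Lrp1, the receptor that takes up hemopexin, with a log2 ratio of -0.83. Slc48a1, which carries heme out of the lysosome, had 35.1 FPKM with probucol and 41.9 FPKM without, and the heme exporter Flvcr1 had 1.42 and 2.17. Hpx, the gene of hemopexin, was listed at 0 in both libraries.

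Of the regulators that sense heme or oxidants, which include known regulators of Hmox1, most differed little between the libraries. Bach1, a heme-binding repressor of Hmox1 and of ferritin genes, had 9.60 FPKM with probucol and 10.8 FPKM without, and 362 and 454 fragments give an FPKM ratio between 0.773 and 1.02. Nfe2l2, the gene of NRF2, had 46.0 FPKM with probucol and 56.3 FPKM without, and Keap1, its inhibitor, had 21.5 and 19.2. Of the 8 regulators, 0 were at least 1.5-fold lower and 1 higher, Nr1d1, a heme-binding clock repressor, at 0.64. The median was -0.02, and by that limit 12.0% of all measured genes were lower and 5.52% higher. RNA levels say nothing of where these proteins lie or how active they are.

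Other targets of NRF2 are set beside Hmox1 as values only. Since the low value of Hmox1 helped choose the group, their smaller differences are no result about them. Nqo1, a quinone reductase often read as a target of NRF2, had 68.0 FPKM with probucol and 67.1 FPKM without, a log2 ratio of 0.02. By the 1.5-fold limit 1 of 11 measured targets was lower and 0 higher, against 12.0% and 5.52% of all measured genes. The median was -0.18. The lower gene was G6pdx, the first enzyme of the pentose phosphate pathway, with 4.03 FPKM with probucol against 10.2 FPKM without. Gclc, a subunit of the enzyme that begins glutathione synthesis, had a log2 ratio of -0.57. Whether Hmox1 differs from these genes cannot be tested with 1 library a group.

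Among other genes of iron transport, 4 of 13 measured were lower by the 1.5-fold limit, 1 was higher, and the median was -0.13. The shares of all measured genes were 12.0% lower and 5.52% higher. Slc11a1, the metal transporter of macrophage phagosomes, had 4.56 FPKM with probucol against 14.6 FPKM without, from an estimated 64 and 228 fragments. Lcn2, which binds bacterial iron carriers, had 18.1 against 52.1 FPKM, and Trf, transferrin, had 32.6 against 65.2 FPKM. The fourth lower gene was Slc39a8, an importer of zinc and iron, with 0.359 FPKM with probucol and 0.886 FPKM without, and it too is measured only through the untreated library. Slc11a2, the iron importer of endosomes, had 10.3 FPKM with probucol and 10.8 FPKM without. Cp, ceruloplasmin that oxidises exported iron, had 64.4 and 70.7 FPKM, and Slc39a14, an importer of iron and zinc, had 19.4 in both. The higher gene was Slc25a28, a carrier of iron into mitochondria, at 0.66.

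Iron sensing at the level of RNA was close to even. Aco1 and Ireb2, the iron regulatory proteins that bind the elements printed above, had 12.3 FPKM and 10.1 FPKM with probucol, and 11.1 FPKM and 10.8 FPKM without. Fbxl5, which directs their decay, had 22.3 and 18.6 FPKM, and Ncoa4, the receptor that delivers ferritin to lysosomes, had 36.8 and 40.4 FPKM. Of 10 measured genes, 1 was past 1.5-fold, Hamp, the gene of the hormone hepcidin that degrades ferroportin. It was listed at 0 with probucol and at 1.44 FPKM without, an estimated 0 and 2 fragments, and at such a depth a difference cannot be seen. Hamp is measured only through the untreated library, so it had to be lower and the count is no support. By the same limit 12.0% of all measured genes were lower and 5.52% higher.

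Assembly of iron-sulfur clusters, a mitochondrial use of iron, went in the same direction as heme synthesis. Of 15 genes, 14 lay above 0, with a median of 0.31 and 0 at least 1.5-fold higher. Of all measured genes, 49.1% lay below 0 and 5.52% were at least 1.5-fold higher. Hspa9, a mitochondrial chaperone, had the highest log2 ratio, at 0.52, and Iscu, the scaffold protein, had 191 FPKM with probucol and 142 FPKM without. Nubp1, of the cytosolic pathway, was the 1 gene lower, at -0.68. With the libraries scaled to heart muscle markers the median is -0.15, where that of all measured genes is -0.42. Under the other scalings tried the median of the list was 0.22 to 0.30, so its sign too depends on the scaling to heart muscle markers.

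Most other zinc genes lay near even. Mtf1, the zinc-sensing factor named above, had 3.64 FPKM with probucol and 2.42 FPKM without, and Slc30a1, a zinc exporter that it induces, had 5.86 and 7.44. Of 16 measured genes other than Mt1 and Mt2, 3 were lower by the 1.5-fold limit and 0 higher, against 12.0% and 5.52% of all measured genes. The median was -0.14. The lower genes were Mt3, the metallothionein best known from brain, Slc39a11 (-1.41) and Slc30a4 (-0.77). Mt3 had 0.453 FPKM with probucol against 3.25 FPKM without, from an estimated 1 and 8 fragments. Its FPKM ratio lay between 0.00314 and 1.04, which includes no difference. Mt3 is measured only through the untreated library, so it had to be lower and its place in the count is no support.

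**Figure D4:**
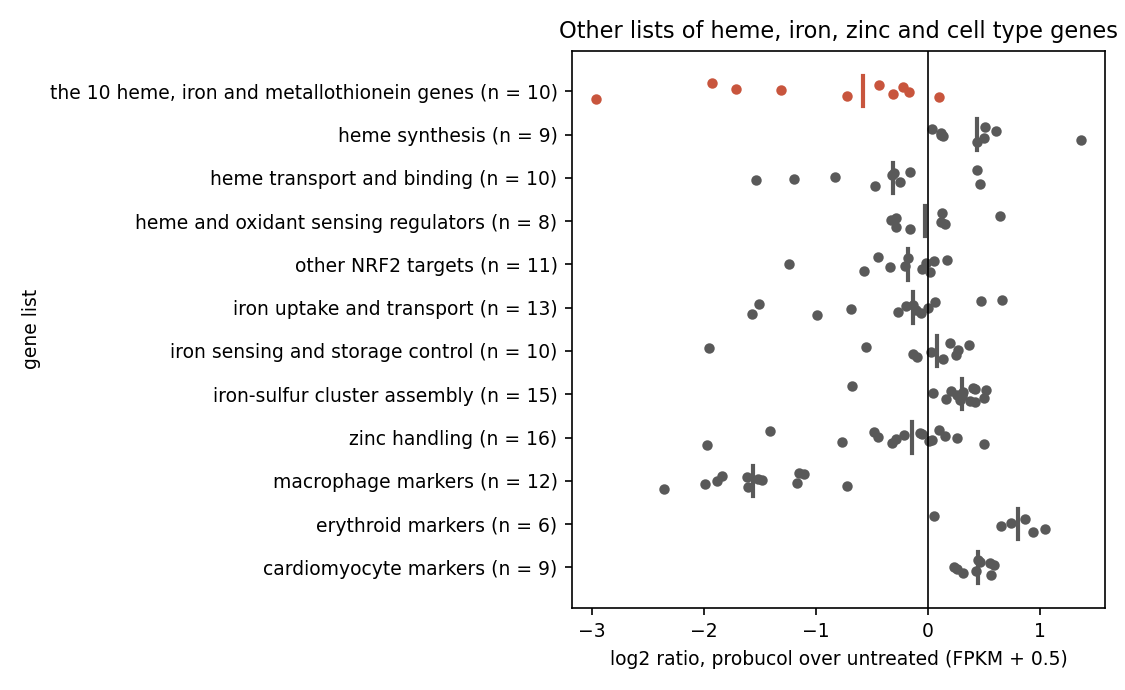
Log2 ratio, probucol over untreated from FPKM + 0.5, of each measured gene in the lists named at the left, with 1 point a gene and a vertical bar at each list's median. The 10 heme, iron and metallothionein genes spread from -2.96 to 0.10, the macrophage markers lie between -2.35 and -0.72, and the heme synthesis genes lie above 0.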

How the data were processed

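The authors deposited FPKM, with a single value per gene symbol and library, per the file headers. Cuffdiff 2.2.1, TopHat2 2.1.1, Bowtie2 and build mm10 appear in the submitters' processing notes. What each tool did, the annotation used and how the libraries were scaled are not stated in the labels or file headers. TruSeq stranded mRNA libraries were prepared from miRNeasy total RNA, per the labels' protocols. FPKM are shares of a library, so a few abundant transcripts lower all others.

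From these, log2((FPKM probucol + 0.5)/(FPKM untreated + 0.5)) was computed without rescaling in Python 3.11.15 with pandas 2.3.3 and scipy 1.17.1, for genes whose mean FPKM reached 0.5, and limits of 2-fold and 1.5-fold were used. With 1 library per group no test was made. The members and lists were chosen with earlier results of these data known. All 10 members are described; 25 further pathway genes, the members of each list with the largest ratios and the 3 nearest genes could be named; Slc25a28, Slc39a8, Clec4f, Spic, Cd5l, Marco, Camp and Ngp were named after their values were seen.

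Fragment numbers were estimated from the steps of low FPKM over 11576 genes with 1 RefSeq transcript, using GENCODE lengths less 220 bases. Of 752 low values with probucol and 702 without, 78.6% and 78.3% lay within 0.1 of a whole number. The calculation of ratios was tested on simulated data. Gene coordinates and promoters are from RefSeq (GRCm38.p6), transcripts from GENCODE M21. Alternatives were other pseudocounts, filters and scalings.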

Additional observations from a re-analysis of the deposited data

How the results depend on the processing

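Under 2 other pseudocounts (0.1 and 1), no filter or one at 1 FPKM, 4 other scalings and, for 6 genes, recovered fragments, the log2 ratios of Hmox1 (-3.42 to -2.92), Mt2 (-2.39 to -1.92), Slc40a1 (-2.17 to -1.68) and Ftl1 (-1.77 to -1.31) stayed at least 2-fold lower, and Blvra (-1.18 to -0.71) at least 1.5-fold lower. The median of the 10 genes was -0.57 with a pseudocount of 1, -0.60 with upper quartile scaling, -0.67 with totals taken without the 10 most abundant genes, and -1.04 with scaling to summed heart muscle markers. This last scaling moved the median of all measured genes to -0.42. Under it 9 members were at least 1.5-fold lower, Hmox2 changed sign, and of the lists of genes and markers 6 had a median at least 1.5-fold lower and 1 higher, against 3 and 2 on the deposited scale. Over all genes it gave 1471 at least 2-fold lower and 61 higher, against 662 and 138 on the deposited scale. At 1.5-fold it gave 4141 and 161, and totals without the 10 most abundant genes gave 1809 and 483, against 1541 and 711. A pseudocount of 0.1 gave 229 genes at least 2-fold higher. The sum of Mt1 and Mt2 had a log2 ratio of -0.78. No value could be had for ferritin summed with its copies, which have no rows. No paired analysis was possible because each group has 1 library. Depth limits Mt3, Hamp, Spic, Cd5l, Marco, Camp, Ngp, Gp9 and Itga2b, which rest on few fragments in 1 library or both.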

Other observations

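Copper, like zinc, is bound by metallothioneins, and genes of copper handling lay near even. Of 9 measured, 0 were at least 1.5-fold lower or higher, against 12.0% and 5.52% of all measured genes. Their median log2 ratio was 0.10. Sco1, which delivers copper to cytochrome oxidase, had the largest ratio, at 0.45, and Atox1, the copper chaperone of the secretory pathway, had 187 FPKM with probucol and 224 FPKM without.

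Genes induced by glucocorticoids, hormones that also induce Mt1 and Mt2, had a median of 0.00 over 8 measured genes. Zbtb16, a zinc finger factor, was the 1 gene past 1.5-fold, with 13.3 FPKM with probucol against 6.39 FPKM without. By that limit 5.52% of all measured genes were higher and 12.0% lower. Pdk4, a kinase that inhibits pyruvate dehydrogenase, had 172 FPKM with probucol and 115 FPKM without.

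Other blood and tissue markers did not share 1 direction. The shares of all measured genes past 1.5-fold, 12.0% lower and 5.52% higher, stand beside the counts here. Platelet markers had 3 of 4 measured genes at least 1.5-fold higher and Pf4 lower, at 53.9 FPKM with probucol against 111 FPKM without. Of the higher genes, Gp9 and Itga2b are measured only through the probucol library, with 7.93 and 3.70 FPKM against 0.444 and 0.498 FPKM without. They had to be higher, so the count is no support. Their untreated values rest on an estimated 2 and 12 fragments. Neutrophil markers were split, 3 lower and 2 higher of 6, with a median of -0.31. Camp and Ngp, granule proteins, are measured only through the untreated library, with 0 and 0.157 FPKM with probucol against 2.06 and 1.41 FPKM without, and the median is 0.49 with a filter at 1 FPKM. Endothelial markers had a median of 0.03 with 0 of 5 past 1.5-fold. Markers of liver, fat and skeletal muscle had 3, 2 and 2 measured genes. Among them Alb, serum albumin, had 1.22 FPKM with probucol and 1.90 FPKM without.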
